A study of Drosophila melanogaster with 48 samples.

Results

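The genes described here serve astrocyte identity and neurotransmitter clearance, and were followed through embryonic neurogenesis of Drosophila melanogaster in sorted glia and neurons. They are 8 of the 17257 genes measured: alrm, Gat, Gs2, Eaat1, Eaat2, e, nrv2 and gb. They were listed by their glial function, but with earlier results of these data known. For each gene, TPM (transcript abundance scaled for transcript length and for the library total) were summed over its transcripts in every library. All 8 passed the filter on low counts.

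Astrocyte-like glia of the fly send fine processes into the neuropil, take transmitter back from the synaptic space and return it to neurons in an inactive form. Glutamate is carried inward by sodium-driven transporters and joined to ammonia by glutamine synthetase, and GABA is taken up by its own transporter and broken down through GABA transaminase. The sodium gradient that drives this uptake is kept by the sodium pump. In this gene set alrm encodes a leucine-rich repeat protein used as an astrocyte marker, Gat the GABA transporter, Gs2 glutamine synthetase, Eaat1 and Eaat2 excitatory amino acid transporters, e (ebony) the enzyme that couples beta-alanine to dopamine and histamine, nrv2 a beta subunit of the sodium pump, and gb (genderblind) a glial cystine/glutamate exchanger subunit.

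The libraries come from embryos dissociated, fixed with formaldehyde, stained for a marker protein and separated by FACS into marker-positive and marker-negative cells. Repo (glia) and Elav (neurons) were sorted at 6-8h, 8-10h and 18-22h after egg laying, with 2 biological replicates for each of 12 groups, 24 of the 48 libraries of the series. All flies had the yellow-white background. Repo-positive and Repo-negative cells came from the line ind_1.4::GFP at 6-8h and from vnd-lexA/VC:FNLDD, which carries reporters of the ventral column, at 8-10h and 18-22h. Elav-positive and Elav-negative cells came at 6-8h from ind_1.4::GFP (replicate 1) and from yw (replicate 2), at 8-10h from yw, and at 18-22h from vnd-lexA/VC:FNLDD. Neuroblasts and ganglion mother cells (Pros) were sorted at 4-6h and 6-8h from vnd-lexA/VC:FNLDD. Cells of the intermediate column (Ind) came from ind_1.4::dsRed at 4-6h and from ind_1.4::GFP at 6-8h, and those of the ventral column (Vnd) from vnd_743::dsRed at both times. Negative cells are all unmarked cells of the embryo: Repo-negative cells include neurons, and Elav-negative cells include glia.

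The Elav and Repo libraries held 18120862 to 54000323 estimated reads. The sorting marker repo had 973 and 770 TPM in Repo-positive cells at 6-8h, against 2.02 and 3.06 TPM in Repo-negative cells, and 592 and 595 TPM at 18-22h, against 6.86 and 9.18 TPM. The log2 fold change of repo in Repo-positive cells was 0.11 ± 0.44 (SE) for 18-22h over 8-10h and did not pass the test. Of 4 listed glial markers (repo, gcm, gcm2 and loco), 2 were called lower, gcm among them by -3.20. Gcm was not confined to Repo-positive cells, with 95.2 and 116 TPM in Repo-negative cells at 6-8h. Neuron markers (7 genes, elav included) summed to 500 and 361 TPM in Repo-positive cells at 6-8h, against 232 and 273 TPM in Repo-negative cells, and to 682 and 736 TPM in Repo-positive cells at 18-22h, against 1228 and 938 TPM in Repo-negative cells. Much of the 6-8h sums was elav, with 383 and 240 TPM in Repo-positive cells, against 215.2 and 248.5 TPM in Repo-negative cells. Of the 7 neuron markers, 5 were called higher in the Repo sort at 6-8h, 2 at 8-10h and 0 at 18-22h. Over all genes 7.36%, 1.8% and 3.22% were called higher in order of time. Hemocyte markers (5 genes) summed to 87.8 and 89.8 TPM in Repo-positive cells at that time, against 1358 and 690 TPM in Repo-negative cells. Libraries also differed in a diffuse low signal: the median over 159 chemosensory receptor genes was 18.7 TPM in 8-10h Repo-positive replicate 2, 15.4 TPM in 8-10h Elav-positive replicate 2 and 14.0 TPM in 18-22h Elav-negative replicate 2, against 0.13 TPM in 18-22h Elav-negative replicate 1. Differences were tested with edgeR's quasi-likelihood test, and a gene was called when its Benjamini-Hochberg adjusted p-value was under 0.05 and its log2 fold change above 1 in size. Groups hold 2 libraries each, so the spread was shared over all 24 groups of the series. In bulk RNA, fewer cells of a type and less RNA per cell cannot be told apart.

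The astrocyte marker alrm and the genes Gat, Gs2 and Eaat1 were called higher in the Repo sort at every time. Alrm had 407 and 451 TPM in Repo-positive cells at 6-8h, against 4.94 and 6.71 TPM in Repo-negative cells. At 8-10h it had 263 and 291 TPM in Repo-positive cells, against 7.22 and 9.47 TPM in Repo-negative cells. At 18-22h it reached 1439 and 1349 TPM in Repo-positive cells, against 26.0 and 26.7 TPM in Repo-negative cells. The groups lay far apart at each time, with alrm enriched by 5.65 ± 0.51 log2 units at 6-8h, by 4.69 ± 0.49 at 8-10h and by 5.93 ± 0.52 at 18-22h. The Benjamini-Hochberg adjusted p-values from edgeR were 7.19e-09, 3.67e-07 and 1.8e-08 in that order.

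Gat had the highest estimate of enrichment of the 8 at each of the 3 times, but the order was not tested. Alrm at 8-10h, and alrm and Gs2 at 18-22h, lay within the SE of Gat. Gat had 554 and 640 TPM in Repo-positive cells at 6-8h, against 2.88 and 4.01 TPM in Repo-negative cells. At 8-10h it had 287 and 363 TPM in Repo-positive cells, against 5.80 and 11.1 TPM in Repo-negative cells. At 18-22h it had 3005 and 2673 TPM in Repo-positive cells, against 48.4 and 40.1 TPM in Repo-negative cells. The groups stood apart at each time, and the log2 fold changes were 6.84 ± 0.63, 4.94 ± 0.58 and 6.18 ± 0.61 in order of time (edgeR, Benjamini-Hochberg adjusted p = 9.63e-09, 2.08e-06 and 7.29e-08).

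Gs2 and Eaat1, which act in series on glutamate, followed the same order of groups. Gs2 had 237 and 412 TPM in Repo-positive cells at 6-8h, 141 and 179 TPM at 8-10h, and 2510 and 1192 TPM at 18-22h. In Repo-negative cells it had 3.72 and 4.38 TPM, 5.80 and 9.85 TPM, and 47.2 and 28.7 TPM at the same times. Eaat1 had 82.0 and 127 TPM in Repo-positive cells at 6-8h, 59.6 and 87.4 TPM at 8-10h, and 811 and 336 TPM at 18-22h, with 0.68 to 6.05 TPM in Repo-negative cells at the first 2 times and 35.1 and 17.7 TPM at 18-22h. Neither gene's groups overlapped at any time. Groups of 2 libraries can stand apart without a difference, and the share of all genes that did so is not given. The log2 fold changes in order of time were 5.66, 3.93 and 5.79 for Gs2 and 5.54, 3.51 and 4.57 for Eaat1, and each was called.

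The other 4 genes were also higher in Repo-positive than in Repo-negative cells, by smaller margins. For e at 6-8h the margin (5.35 log2 units) was close to that of Eaat1 (5.54). Nrv2 was abundant in all cells, with 756 and 972 TPM in Repo-positive cells at 6-8h, against 214 and 200 TPM in Repo-negative cells, and 4261 and 2313 TPM at 18-22h, against 340 and 276 TPM. Gb had 176 and 166 TPM in Repo-positive cells at 6-8h, against 36.5 and 37.7 TPM in Repo-negative cells, and 130 and 135 TPM at 18-22h, against 23.5 and 23.6 TPM. Eaat2 was the rarer of the glutamate transporters in glia: it had 8.85 and 19.8 TPM in Repo-positive cells at 6-8h, against 0.75 and 1.46 TPM in Repo-negative cells, and 108 and 75.3 TPM at 18-22h, against 19.8 and 18.4 TPM. Ebony was low, with 12 and 25.4 TPM in Repo-positive cells at 6-8h, against 0.16 and 0.42 TPM in Repo-negative cells, and 33.7 and 28.6 TPM at 18-22h, against 2.92 and 4.42 TPM. For these 4 genes too the groups did not overlap at either time, which again only describes the values. At 8-10h nrv2 had 604 and 575 TPM in Repo-positive cells, against 216 and 233 TPM in Repo-negative cells. Gb had 144 and 109 TPM in Repo-positive cells then, against 39.6 and 41.7 TPM in Repo-negative cells. Eaat2 had 8.97 and 28.7 TPM in Repo-positive cells at 8-10h, against 3.63 and 7.46 TPM in Repo-negative cells. The libraries did not overlap at 8-10h either, though the replicates of Eaat2 in Repo-positive cells lay far apart.

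In the Repo sort all 8 genes were called higher at 6-8h, where 7.36% of all genes tested were called higher, 4 of 8 at 8-10h (alrm, Gat, Gs2 and Eaat1, against 1.8% of all genes) and all 8 at 18-22h (3.22% of all genes). The median log2 fold change of the 8 was 5.45, 2.67 and 4.12 in order of time, against 0.22, 0.32 and -0.21 over all genes. With median-of-ratios scaling in place of TMM the median over all genes at 6-8h was 0.59. At 8-10h the values of the uncalled genes were 1.15 for Eaat2, 1.83 for e, 1.10 for nrv2 and 1.07 for gb, and DESeq2 called 7 of the 8 there. In 8-10h Repo-positive replicate 2, the library with the receptor median of 18.7 TPM, Eaat2 had 28.7 TPM, against 8.97 TPM in replicate 1, and e had 21.2 TPM, against 14.4 TPM. The part of that low signal in these values was not tested. Leaving out 6-8h Repo-negative replicate 1 or 2 or Repo-positive replicate 1 left 6 genes called at 6-8h, without nrv2 and gb. Leaving out 18-22h Repo-negative replicate 1 or 2 or Repo-positive replicate 1 left 6 called at 18-22h, without Eaat2 and e.

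**Figure D1:**
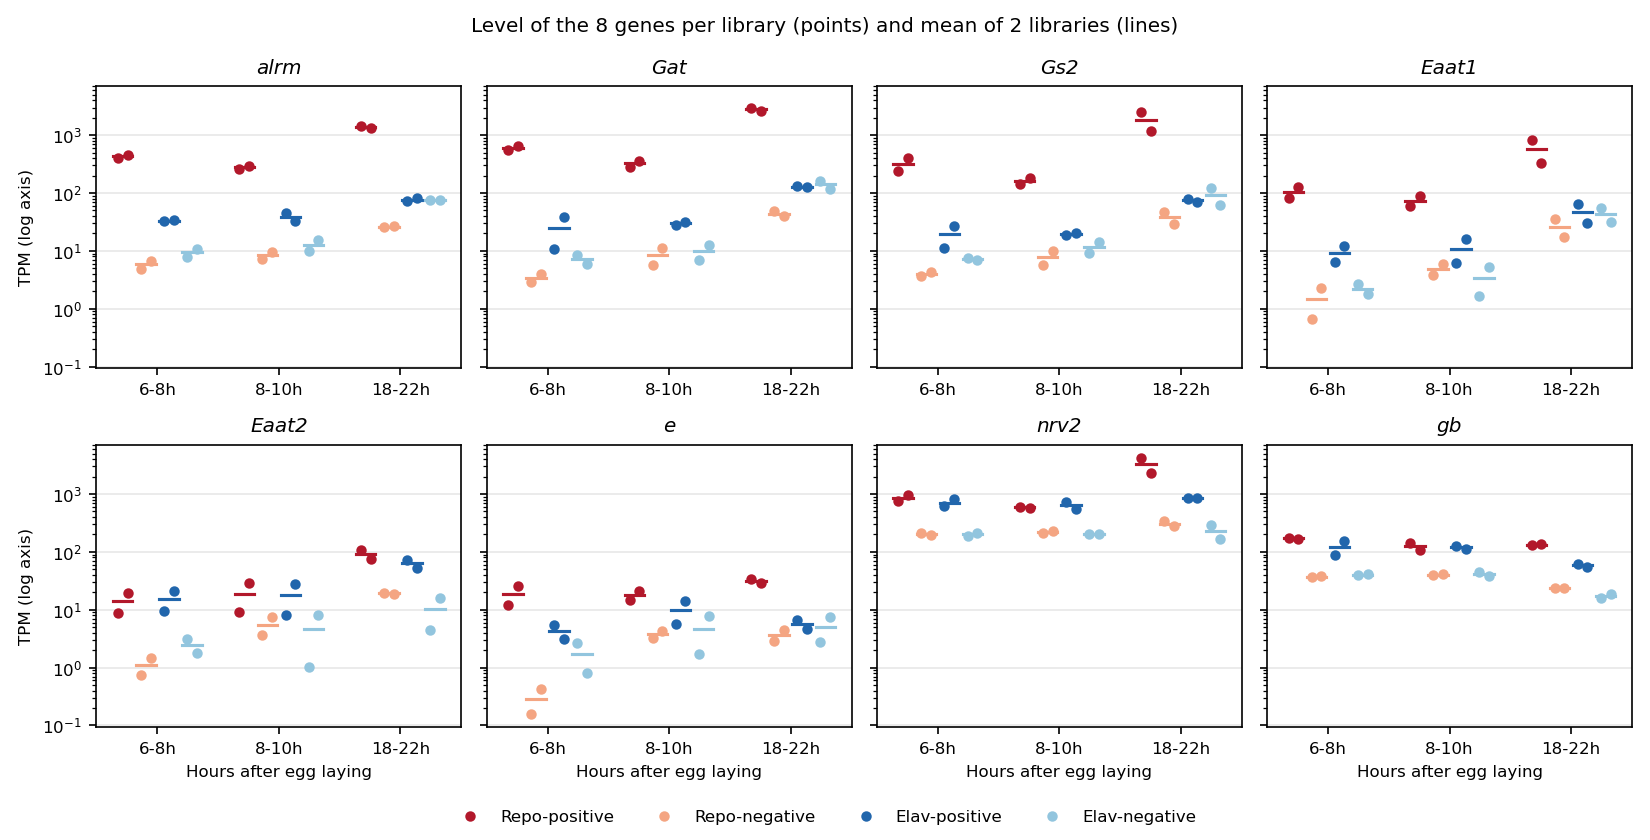
TPM of the 8 genes on a log axis against time after egg laying, with 1 point per library and a line at the mean of 2 libraries, for Repo-positive, Repo-negative, Elav-positive and Elav-negative cells. Repo-positive cells lie highest for alrm, Gat, Gs2 and Eaat1 at every time, whereas nrv2, gb and Eaat2 have Elav-positive cells at a similar level at 6-8h and 8-10h.

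In the Elav sort the same genes showed 2 patterns. Eaat2, nrv2 and gb had higher mean TPM in Elav-positive than in Elav-negative cells at each time. Eaat2 had 9.43 and 21.3 TPM in Elav-positive cells at 6-8h, against 3.08 and 1.78 TPM in Elav-negative cells, and 72.9 and 53.3 TPM at 18-22h, against 4.55 and 16.2 TPM, a difference of 2.69 ± 0.58 log2 units (Benjamini-Hochberg adjusted p = 0.000844 by edgeR). Nrv2 had 611 and 812 TPM in Elav-positive cells at 6-8h, against 189 and 216 TPM in Elav-negative cells. At 18-22h it had 870 and 839 TPM, against 293 and 169 TPM, and was not called (1.14 ± 0.48 log2 units, Benjamini-Hochberg adjusted p = 0.0929 by edgeR). Gb had 62.5 and 55.2 TPM in Elav-positive cells at 18-22h, against 15.9 and 18.4 TPM in Elav-negative cells, a difference of 1.24 ± 0.40 log2 units (Benjamini-Hochberg adjusted p = 0.0241 by edgeR).

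The second pattern was that of alrm, Gat, Gs2 and Eaat1, which had lower values in Elav-positive than in Repo-positive cells at each time. None of them was called in the Elav sort at 18-22h. Alrm had 32.5 and 34.0 TPM in Elav-positive cells at 6-8h, against 7.98 and 10.9 TPM in Elav-negative cells. At 18-22h the order was lost, with 71.5 and 81.3 TPM in Elav-positive cells, against 76.2 and 77.3 TPM in Elav-negative cells. Gat had 10.9 and 38.6 TPM in Elav-positive cells at 6-8h, against 8.62 and 5.83 TPM in Elav-negative cells, and 130 and 125 TPM at 18-22h, against 163 and 120 TPM. The listed glial markers summed to 300 and 218 TPM in Elav-positive cells at 6-8h, against 168 and 236 TPM in Elav-negative cells. Repo alone had 77.3 and 48.1 TPM, against 4.56 and 4.05 TPM. Gs2 had 80.0 and 71.2 TPM in Elav-positive cells at 18-22h, against 122 and 62.1 TPM in Elav-negative cells, and Eaat1 had 64.5 and 30.4 TPM, against 54.8 and 31.7 TPM, so both genes overlapped between the fractions. Ebony had 5.47 and 3.11 TPM in Elav-positive cells at 6-8h, against 2.64 and 0.80 TPM in Elav-negative cells, and 6.58 and 4.56 TPM at 18-22h, against 2.76 and 7.38 TPM. At 18-22h the receptor median was 10.0 TPM in Elav-positive replicate 1 and 14.0 TPM in Elav-negative replicate 2, above ebony in these libraries. The part of glial RNA in these Elav-positive values, and in those of Eaat2, nrv2 and gb, was not tested.

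In the Elav sort 6 of 8 genes were called higher at 6-8h (all but Gs2 and e, against 9.34% of all genes), 5 of 8 at 8-10h (alrm, Eaat2, Gat, nrv2 and gb, against 5.71%) and 2 of 8 at 18-22h (Eaat2 and gb, against 9.09%). None was called lower at any time with edgeR or DESeq2. At 18-22h 3 of the 8 had an unadjusted p-value under 0.05 in either direction. Many of these calls depended on single libraries or on the spread shared with other sorts. A fit of the 24 Elav and Repo libraries alone called 1 gene at 6-8h, 0 at 8-10h and 1 at 18-22h. Leaving out 6-8h Elav-negative replicate 1 left 1 gene called, and leaving out Elav-negative replicate 2 or Elav-positive replicate 2 left 2. At 8-10h 0 remained without Elav-negative replicate 1, and 1 without Elav-negative replicate 2 or Elav-positive replicate 1. At 18-22h gb was lost without Elav-negative replicate 2 or without either Elav-positive replicate, nrv2 was gained without Elav-negative replicate 1, and Gs2 was called lower without Elav-negative replicate 2. The log2 fold changes of alrm, Eaat1, Gat and Gs2 at 18-22h were -0.44, -0.57, -0.62 and -0.99, and without Elav-negative replicate 1 they were 0.54, 1.02, 0.67 and 0.73. In the 6-8h sort, where each replicate number stands for 1 fly line in both fractions, a fit with the replicate as a block called 5 genes, without Gat.

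Set directly against neurons, glia held more alrm, Gat, Gs2 and Eaat1 RNA at each time. At 6-8h alrm was 12.9-fold, Gat 24.1-fold, Gs2 16.8-fold and Eaat1 11.3-fold higher in Repo-positive than in Elav-positive cells by the ratio of mean TPM, and these 4 of 8 genes were called (3.91% of all genes were called higher). The same 4 were called at 8-10h (2.37% of all genes), with ratios of 7.06, 10.9, 8.20 and 6.69. At 18-22h 7 of 8 were called (6.2% of all genes), with ratios of 18.2 for alrm, 22.3 for Gat, 24.5 for Gs2, 12.1 for Eaat1, 5.59 for e, 3.85 for nrv2 and 2.25 for gb. Without 18-22h Elav-positive replicate 1 or Repo-positive replicate 1, 4 were called there, and e, nrv2 and gb were not. Without Elav-positive replicate 2, 5 were called (e and gb lost), and without Repo-positive replicate 2, 6 (gb lost).

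None of the 8 was called lower in Repo-positive than in Elav-positive cells with edgeR or DESeq2, against 7.8%, 4.51% and 6.06% of all genes in order of time, and Eaat2 was called at no time. Its log2 fold change of Repo-positive over Elav-positive cells was -0.46 ± 0.54 at 6-8h, -0.04 ± 0.54 at 8-10h and 0.75 ± 0.54 at 18-22h. The libraries of the sorts overlapped at the first 2 times, and at 18-22h Repo-positive cells had 108 and 75.3 TPM, against 72.9 and 53.3 TPM in Elav-positive cells. The values of nrv2 were 0.30 ± 0.47 and -0.25 ± 0.47 at 6-8h and 8-10h, and those of gb were 0.09 ± 0.39 and -0.29 ± 0.39. Among the negative cells of the 2 sorts at 6-8h and 8-10h edgeR called 0 of 8, against 0% of all genes called higher and 0.00584% lower at 6-8h, and 0.427% higher and 0.38% lower at 8-10h. An unadjusted p-value under 0.05 was found for 1 gene at 6-8h and 0 at 8-10h, and DESeq2 called 0 at both times. At 8-10h the 4 calls between the sorted cells rest on the spread of the whole series: a fit of the 4 libraries alone called 0, and a fit of the 24 Elav and Repo libraries called 2 (alrm and Gat). Without 8-10h Elav-positive replicate 1 Eaat1 was lost, and without replicate 2 Gs2 was lost. The fly line differed between the Repo and the Elav sort at 8-10h, and for Elav replicate 2 at 6-8h, so the line and the cell type cannot be told apart there.

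**Figure D2:**
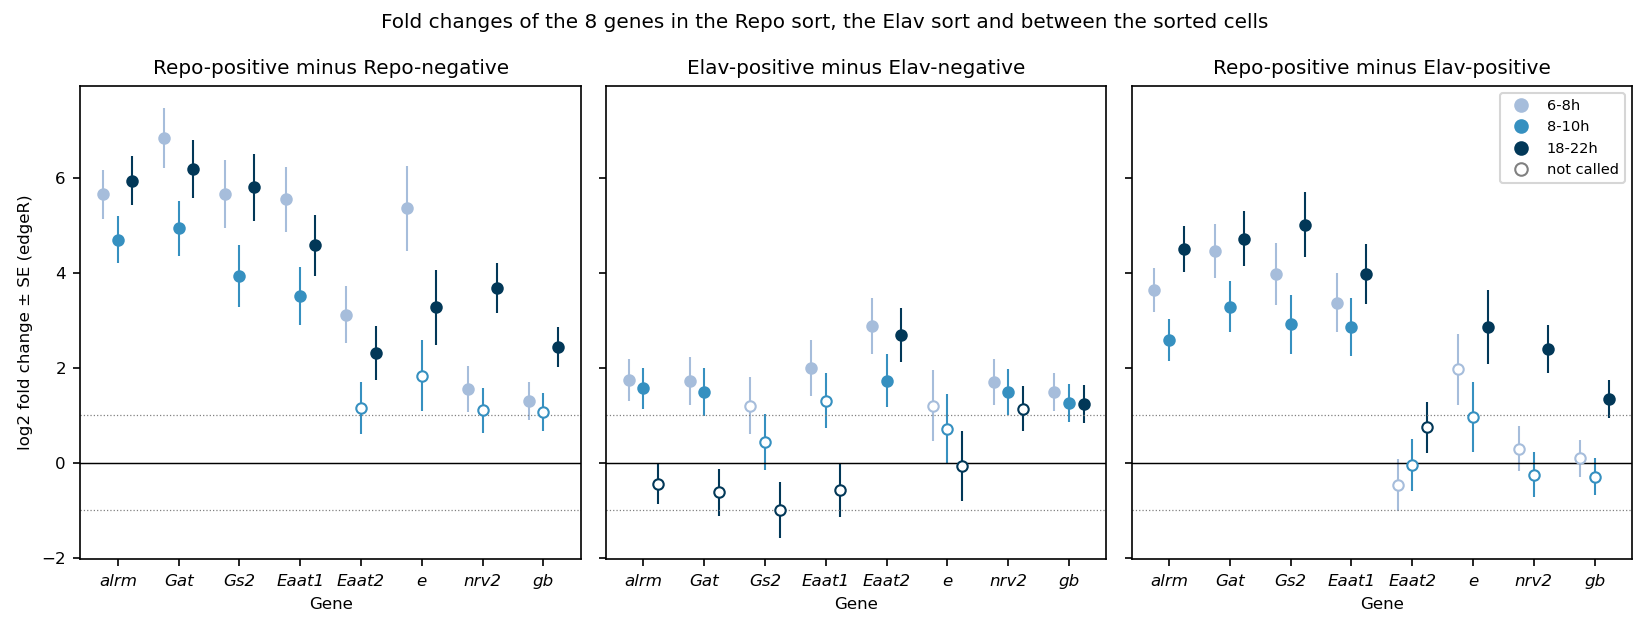
log2 fold changes with their SE from edgeR, for Repo-positive over Repo-negative cells, Elav-positive over Elav-negative cells and Repo-positive over Elav-positive cells at 3 times; filled points were called and open points were not. Alrm, Gat, Gs2 and Eaat1 are called in the left and right panels at every time, and Eaat2 lies near 0 in the right panel.

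Most of the 8 genes rose in Repo-positive cells between the last 2 times. Between 8-10h and 18-22h, 6 of 8 genes rose in Repo-positive cells, where 7.84% of all genes were called higher and 5.05% lower. The log2 fold changes of 18-22h over 8-10h were 4.14 ± 0.66 for Gs2, 3.63 ± 0.54 for Gat, 3.58 ± 0.62 for Eaat1, 3.08 ± 0.51 for nrv2, 2.99 ± 0.58 for Eaat2 and 2.89 ± 0.45 for alrm (edgeR, Benjamini-Hochberg adjusted p from 3.69e-05 to 0.000585). All 6 stayed called when any 1 of the 4 libraries was left out. The summed TPM of the 8 genes was 12300 and 8102 in Repo-positive cells at 18-22h, against 1522 and 1655 at 8-10h. E (1.42 ± 0.74) and gb (0.45 ± 0.39) were not called, and e was called in a fit of the 4 libraries alone. Markers of other cells changed in the same step: 5 of 7 neuron markers and 2 of 3 of subperineurial glia were called higher, with medians of 2.64 and 2.28, and 4 of 4 neuroblast markers were called lower (-1.55). Muscle markers had 3 of 4 and epidermal markers 2 of 6 called higher. The listed glial markers summed to 845 and 946 TPM at 18-22h, against 2792 and 1963 TPM at 8-10h. Much of that fall was gcm, with 58.9 and 137 TPM at 18-22h, against 1473 and 1061 TPM at 8-10h. The part of these changes in the rise of the 8 genes was not tested.

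The replicates of 18-22h Repo-positive cells differed more in some of these genes than in others. Replicate 1 over replicate 2 was 2.42 for Eaat1, 2.11 for Gs2 and 1.84 for nrv2, against 1.07 for alrm, 1.12 for Gat and 0.96 for gb. Eaat1 was also higher in replicate 1 of the other 3 groups at that time, with ratios of 1.99 in Repo-negative, 2.12 in Elav-positive and 1.73 in Elav-negative cells.

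The rise was not confined to the marked cells. In Repo-negative cells 5 of 8 genes were called higher at 18-22h than at 8-10h (10.4% of all genes): Eaat1 by 2.51, Gat by 2.38, Gs2 by 2.28, Eaat2 by 1.84 and alrm by 1.65 log2 units. In that fraction Gat had 48.4 and 40.1 TPM at 18-22h, against 5.80 and 11.1 TPM at 8-10h. Of these 5 calls, 2 remained without 8-10h Repo-negative replicate 1 (Eaat1 and Gat), 3 without 8-10h replicate 2 and 2 without 18-22h replicate 1 (alrm and Gat), and a fit of the 24 Elav and Repo libraries called 0. Repo itself had 6.86 and 9.18 TPM in Repo-negative cells at 18-22h, against 5.97 and 8.00 TPM at 8-10h. Gcm had 9.78 and 12 TPM there at 18-22h, against 142 and 135 TPM at 8-10h, and 2 of 4 listed glial markers were called lower. In the same cells and step 5 of 7 neuron markers (median 4.49) and 5 of 6 epidermal markers (median 2.17) were called higher. Their part in the rise was not tested.

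The change of enrichment, positive minus negative cells at the later time less the same at the earlier time, was called by edgeR for 0 of 8 genes in each of 4 comparisons. In the Repo sort between 8-10h and 18-22h the median log2 value of the 8 was 1.31, against -0.43 over all genes, where 0.228% of all genes were called higher and 0.0935% lower. There 4 genes had an unadjusted p-value under 0.05, and DESeq2 called 2, nrv2 and gb, both higher. In the Repo sort between 6-8h and 8-10h the median was -1.82, with 0% of all genes called higher and 0.0117% lower, 5 genes had an unadjusted p-value under 0.05 and DESeq2 called 0. In the Elav sort between 8-10h and 18-22h the median was -1.10, with 0.386% of all genes called higher and 0.129% lower. There 3 genes had an unadjusted p-value under 0.05 and DESeq2 called 2, alrm and Gat, both lower at 18-22h, which edgeR also called without 18-22h Elav-negative replicate 2, while it called alrm alone without 8-10h Elav-positive replicate 2. In the Elav sort between 6-8h and 8-10h 0 genes had an unadjusted p-value under 0.05 and DESeq2 called 0, with 0.00584% of all genes called in each direction. In the Elav sort the fly line changed for replicate 1 between 6-8h and 8-10h and for both replicates between 8-10h and 18-22h, so the line and the time cannot be told apart in these steps.

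Between 6-8h and 8-10h edgeR called 0 of 8 genes in Repo-positive cells, where 0.0409% of all genes were called higher and 0.0175% lower. The median log2 fold change of the 8 was -1.005, against 0.39 over all genes, 4 genes had an unadjusted p-value under 0.05 and DESeq2 called 1, alrm, lower at 8-10h. In Repo-negative cells edgeR also called 0 of 8 (0.0877% of all genes higher and 0.17% lower), 2 had an unadjusted p-value under 0.05, and DESeq2 called 2, Eaat2 and e, higher at 8-10h. The fly line changed between 6-8h and 8-10h in the Repo sort, so the line and the time cannot be told apart in that step.

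At 18-22h alrm and Gat were lower in Repo-negative than in Elav-negative cells. By the sorting, Elav-negative cells include glia and Repo-negative cells include neurons, and the part of either in these values was not tested. Repo-negative cells had 26.0 and 26.7 TPM of alrm, against 76.2 and 77.3 TPM in Elav-negative cells. Gat had 48.4 and 40.1 TPM in Repo-negative cells, against 163 and 120 TPM in Elav-negative cells. Both genes were called lower in Repo-negative cells, at -1.87 ± 0.43 and -2.08 ± 0.51 (Benjamini-Hochberg adjusted p of 0.0114 and 0.0173 by edgeR), 2 of 8 against 0.0468% of all genes. The other 6 were not called, and their values were -1.77 for Gs2, -1.18 for Eaat1, -0.48 for e, -0.14 for nrv2, 0.14 for gb and 1.13 for Eaat2. Of the neuron markers, 6 of 7 were called higher in Repo-negative cells (median 3.17), and of the listed glial markers 1 of 4 was called lower. This comparison rests on single libraries: 0 were called without Elav-negative replicate 1 or without either Repo-negative replicate, and 4 without Elav-negative replicate 2, the library with the receptor median of 14.0 TPM. A fit of the 24 Elav and Repo libraries called 0.

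Nrv2 and Eaat2 had higher means in the positive cells of both the Repo and the Elav sort. They took different shares of their TPM from their annotated transcript starts in Repo-positive and Elav-positive libraries. Gb did so within each time. Salmon estimates each transcript from reads that transcripts partly share, so these shares are model estimates and are given as a description, with no test. The authors quantified against an older release of the annotation than the one used here for the starts. For nrv2, the start of transcript RF gave 47.1% and 57.4% of the gene's TPM in Repo-positive cells at 6-8h, 38.3% and 46.4% at 8-10h, and 82.4% and 73.9% at 18-22h. In Elav-positive cells it gave 3.79% and 5.11%, 3.68% and 3.46%, and 15.8% and 15.3% at the same times. In TPM, RF had 3509 and 1709 in Repo-positive cells at 18-22h, against 138 and 129 in Elav-positive cells.

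The start shared by nrv2 transcripts RA, RD and RE gave nearly all of the rest. It had 714 and 578 TPM in Repo-positive cells at 18-22h, against 726 and 709 TPM in Elav-positive cells, and these libraries overlapped. At 6-8h it had 397 and 407 TPM in Repo-positive cells, against 587 and 770 TPM in Elav-positive cells, and at 8-10h 364 and 289 TPM, against 692 and 522 TPM. The cell types did not overlap at this start at these times, with Elav-positive cells higher, the reverse of the RF start. Elav-negative cells at 18-22h took 70.6% and 41.4% of nrv2 TPM from the RF start, against 1.48% and 0.50% at 8-10h. Repo-negative cells took 32.5% and 20.5% from it at 18-22h.

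For gb, the start of transcript RB gave 53.7% and 62.7% of TPM in Repo-positive cells at 6-8h, 58.3% and 43.6% at 8-10h, and 66.5% and 64.8% at 18-22h. In Elav-positive cells it was listed at 0 in all 4 libraries of 6-8h and 8-10h and gave 54.4% and 30.0% at 18-22h. Over all times the ranges overlapped, at 43.6% to 66.5% in Repo-positive and 0% to 54.4% in Elav-positive libraries. For Eaat2 the order was the other way round. The start of transcript RC gave 31.8% to 49.8% of TPM in the 6 Repo-positive libraries, against 57.6% to 97.6% in the 6 Elav-positive libraries. The lowest Elav-positive value, 57.6%, was that of 8-10h replicate 2, the library with the receptor median of 15.4 TPM. The start of Eaat2 transcripts RA and RD had 73.4 and 46.6 TPM in Repo-positive cells at 18-22h, against 10.6 and 6.12 TPM in Elav-positive cells, while RC had 34.3 and 28.6 TPM, against 62.3 and 47.2 TPM.

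Eaat1 and Gs2 also have a pair of annotated starts, and the ranges of their shares over the 6 libraries of each cell type overlapped, as those of gb did. The start of Eaat1 transcript RC gave 6.72% to 28.1% of TPM in Repo-positive libraries, against 0% to 28.7% in Elav-positive libraries. The start of Gs2 transcripts RB and RD gave 9.59% to 19.9% in Repo-positive libraries, against 7.12% to 47.2% in Elav-positive libraries. Alrm and e have 1 annotated transcript each.

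**Figure D3:**
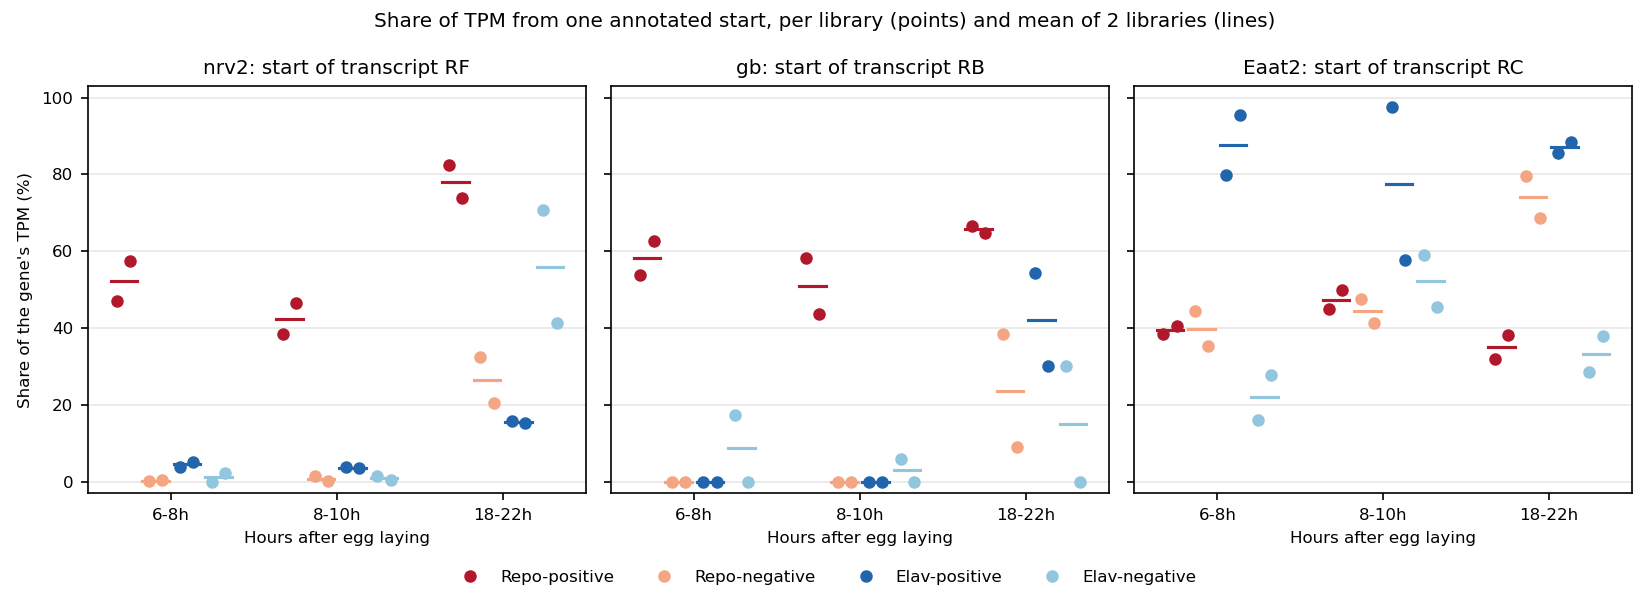
Share of a gene's TPM, in percent, from the annotated start of nrv2 transcript RF, gb transcript RB and Eaat2 transcript RC, against time after egg laying, with 1 point per library and a line at the mean of 2 libraries. Repo-positive libraries lie between 38.3% and 82.4% for nrv2 RF, all above the Elav-positive libraries, and between 31.8% and 49.8% for Eaat2 RC, all below them.

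In the earlier sorts several of the genes were also higher in Pros-positive cells, the neuroblasts and ganglion mother cells. At 4-6h Gat had 189 and 134 TPM in Pros-positive cells, against 17.3 and 10.6 TPM in Pros-negative cells. Alrm had 104 and 70.5 TPM in Pros-positive cells, against 12.5 and 12.1 TPM in Pros-negative cells. In all, 5 of 8 genes were called higher at 4-6h (3.6% of all genes), with log2 fold changes of 3.80 for Gat, 3.09 for alrm, 2.73 for Eaat1, 2.52 for Gs2 and 1.84 for nrv2. At 6-8h Gat (3.31 ± 0.54) and alrm (2.71 ± 0.45) were called, 2 of 8 (2.27% of all genes). None of the 8 was called lower with edgeR or DESeq2 at either time, against 2.18% of all genes at 4-6h and 1.3% at 6-8h. At 6-8h Gat had 89.9 and 79.6 TPM in Pros-positive cells, against 10.8 and 7.33 TPM in Pros-negative cells. Without 4-6h Pros-negative replicate 1 or 2 only Gat and alrm were called at 4-6h, and without Pros-positive replicate 2 Gs2 and nrv2 were lost.

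Of the 4 listed glial markers, 2 were called higher in Pros-positive cells at 4-6h and 1 at 6-8h, and of the 7 neuron markers 4 and 5. Repo had 70.8 and 59.6 TPM in Pros-positive cells at 4-6h, against 11.9 and 9.72 TPM in Pros-negative cells, and gcm had 173 and 202 TPM, against 67.2 and 72.7 TPM. Elav had 1524 and 1545 TPM in Pros-positive cells at 4-6h, against 118 and 128 TPM in Pros-negative cells. The part of early glia and neurons within the Pros gate was not tested. In the sorts of the intermediate (Ind) and ventral (Vnd) columns 0 of 32 tests in 4 comparisons were called with edgeR, 5 had an unadjusted p-value under 0.05 and DESeq2 called 3. Those 5 were all in the Ind sort: nrv2 (higher) and Gs2 (lower) at both times, and gb (lower) at 4-6h. The log2 fold changes of the 32 tests ran from -1.52 for Gs2 to 1.16 for nrv2, both in the Ind sort at 6-8h. In the Vnd sort nrv2 had 0.91 at 4-6h and 0.69 at 6-8h. Of all genes, 1.16% were called higher and 3.33% lower in Ind-positive cells at 4-6h, 0.684% and 1.65% at 6-8h, and in Vnd-positive cells 0.555% and 0.129% at 4-6h and 0.0877% and 0.0526% at 6-8h. Gat ranged from 2.53 to 30.8 TPM over those 16 libraries, with a median of 11.5 TPM.

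**Figure D4:**
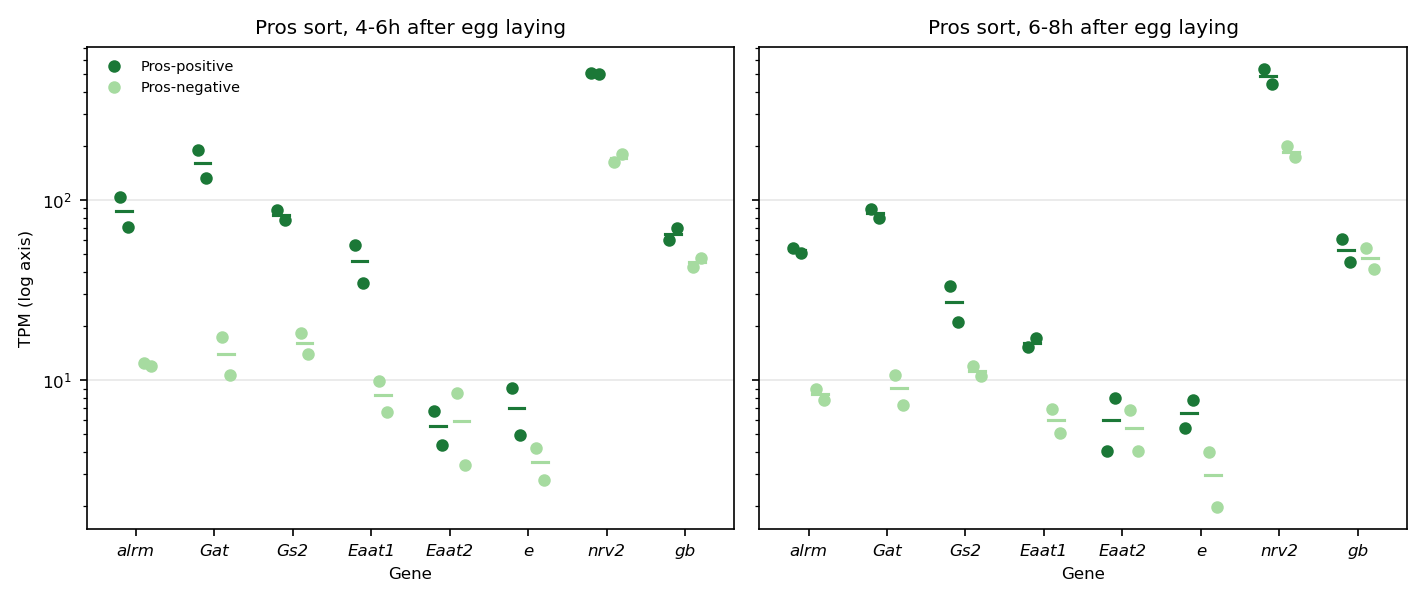
TPM of the 8 genes on a log axis in Pros-positive and Pros-negative cells at 4-6h and at 6-8h, with 1 point per library and a line at the mean of 2 libraries. Gat and alrm show the widest gaps at both times, and the groups overlap for Eaat2.

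Over the 24 Elav and Repo libraries alrm, Gat, Gs2 and Eaat1 varied together. Pearson's r of log2(TPM + 1) was 0.99 between Gat and Gs2, 0.98 between alrm and Gat, 0.98 between Eaat1 and Gs2, and 0.98 between Eaat1 and Gat. The r of Eaat2, the other glutamate transporter, with these 4 genes was 0.73 to 0.82. Gb had lower values, with r from 0.41 with Eaat2 to 0.75 with nrv2. These values describe 24 libraries that share sorts, times and replicates, and carry no test.

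The pattern of each gene was also compared with those of 12653 protein-coding genes, and the 8 genes themselves were left out of this ranking. Outside the 8, the closest to Gs2 and to Gat was CG3168, with r of 0.991 and 0.990. CG3168 was also among the 3 closest to alrm and Eaat1. CG3168 had 1105 and 783 TPM in Repo-positive cells at 18-22h, against 37.9 and 46.1 TPM in Elav-positive cells. Gabat, the GABA transaminase, was the third closest to Gat (r = 0.98), and zyd, a sodium/calcium exchanger gene known from cortex glia, was among the 3 closest to alrm, Gat and Gs2. The other genes named by this measure were CG32032 for alrm (r = 0.985), CG15203 and the odorant-binding protein gene Obp44a for Eaat1, and the neprilysin-like gene Nepl15 for Gs2. Nrv2 was nearest to the spectrin genes alpha-Spec (r = 0.952) and beta-Spec and to Invadolysin. Gb was nearest to Cnx99A, which encodes calnexin (r = 0.977), then to Ced-12 and Mtl. Eaat2 was nearest to CG4629 (r = 0.965), HisT and nolo, and e to whip (r = 0.958), hubl and CG8837.

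Partner genes of the same pathways were taken from 5 lists with 31 genes in all. In the Repo sort 16 of 31 were called higher and 2 lower at 6-8h, 13 higher and 1 lower at 8-10h, and 15 higher and 2 lower at 18-22h. Their median log2 fold change was 2.04, 1.15 and 0.71 in order of time, against 0.22, 0.32 and -0.21 over all genes. In the Elav sort 8 were called higher and 1 lower at 6-8h, 5 higher and 5 lower at 8-10h, and 6 higher and 6 lower at 18-22h. Over all genes, 7.36%, 1.8% and 3.22% were called higher in the Repo sort at these times, and 9.34%, 5.71% and 9.09% in the Elav sort. The shares called lower were 7.67%, 7.8% and 11.8% in the Elav sort, and 10.4%, 2.08% and 2.63% in the Repo sort. The counts per list that follow stand beside these same shares.

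Gabat and Ssadh, which break down GABA, were glial at each time. Of 8 genes of glutamate and GABA metabolism, 4 were called higher in the Repo sort at 6-8h, 4 at 8-10h and 3 at 18-22h. Gabat had 568 and 576 TPM in Repo-positive cells at 18-22h, against 67.7 and 68.9 TPM in Repo-negative cells, with log2 fold changes of 3.01, 2.80 and 3.21 in order of time. Ssadh, the enzyme after it, and the aspartate aminotransferase gene Got1 were called higher at each time, by 2.76 and 2.72 at 18-22h. Gad1, the glutamate decarboxylase that makes GABA, was called higher in the Elav sort at each time, and at 18-22h by 4.69 ± 0.80, with 300 and 228 TPM in Elav-positive cells, against 3.19 and 17.8 TPM in Elav-negative cells. Gs1, the other glutamine synthetase, ran opposite to Gs2: it was called lower in the Repo sort at each of the 3 times (-1.93, -1.59 and -2.18), with 37.7 and 47.6 TPM in Repo-positive cells at 18-22h, against 231 and 210 TPM in Repo-negative cells.

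Of 9 genes of monoamine and acetylcholine clearance, 4 were called higher in the Repo sort at 6-8h, 3 at 8-10h and 3 at 18-22h. DAT, the dopamine transporter, was called higher in the Repo sort at each time (7.27, 2.80 and 4.40). It had 308 and 174 TPM in Repo-positive cells at 18-22h, against 14.1 and 11.7 TPM in Repo-negative cells. Ace, acetylcholinesterase, was called higher in both sorts at each time, by 2.61 in the Repo sort and 2.93 in the Elav sort at 18-22h. ChT, the choline transporter, was called higher in the Elav sort at each time, by 3.95 at 18-22h. Tan (t), the hydrolase that reverses the reaction of ebony, was called lower in the Repo sort at 6-8h and 18-22h (-3.19 and -1.93) and lower in the Elav sort at each time.

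Among 6 genes of the sodium pump and of cation-chloride transport, nrv3, a beta subunit of the pump, was the 1 gene called lower in Repo-positive than in Elav-positive cells at each time. Nrv3 was called higher in the Elav sort by 6.41, 4.74 and 4.59, and had 1595 and 1346 TPM in Elav-positive cells at 18-22h, against 48.5 and 72.0 TPM in Elav-negative cells. Its values for Repo-positive over Elav-positive cells were -3.13, -2.40 and -2.27. Nrv1, another beta subunit, was called lower in the Elav sort at 8-10h (-2.04) and in no other of the 3 times of either sort. The values of nrv1 for Repo-positive over Elav-positive cells were 0.93, 0.73 and 0.70 in order of time, none called. The cotransporter gene Ncc69 was called higher in the Repo sort at 18-22h by 4.36, with 1064 and 562 TPM in Repo-positive cells, against 60.9 and 43.1 TPM in Elav-positive cells. Atpalpha, the catalytic subunit, was called higher in both sorts at 6-8h and at 18-22h, by 1.74 in the Repo sort and 2.07 in the Elav sort at the later time.

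Amino acid exchanger genes (5) had 2, 3 and 3 members called higher in the Repo sort in order of time. The exchanger gene mnd was called higher in the Repo sort at each time and lower in the Elav sort at 8-10h and 18-22h (-2.02 and -2.35). Of the 3 other genes associated with astrocytes, naz was the most enriched partner in the Repo sort at each time (7.58, 4.08 and 5.78), and the FGF receptor gene htl was called higher at each time, by 2.96 at 18-22h. Wun2, a lipid phosphate phosphatase gene, was called higher in the Repo sort at 18-22h (2.18) and lower in the Elav sort at that time (-1.78).

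**Figure D5:**
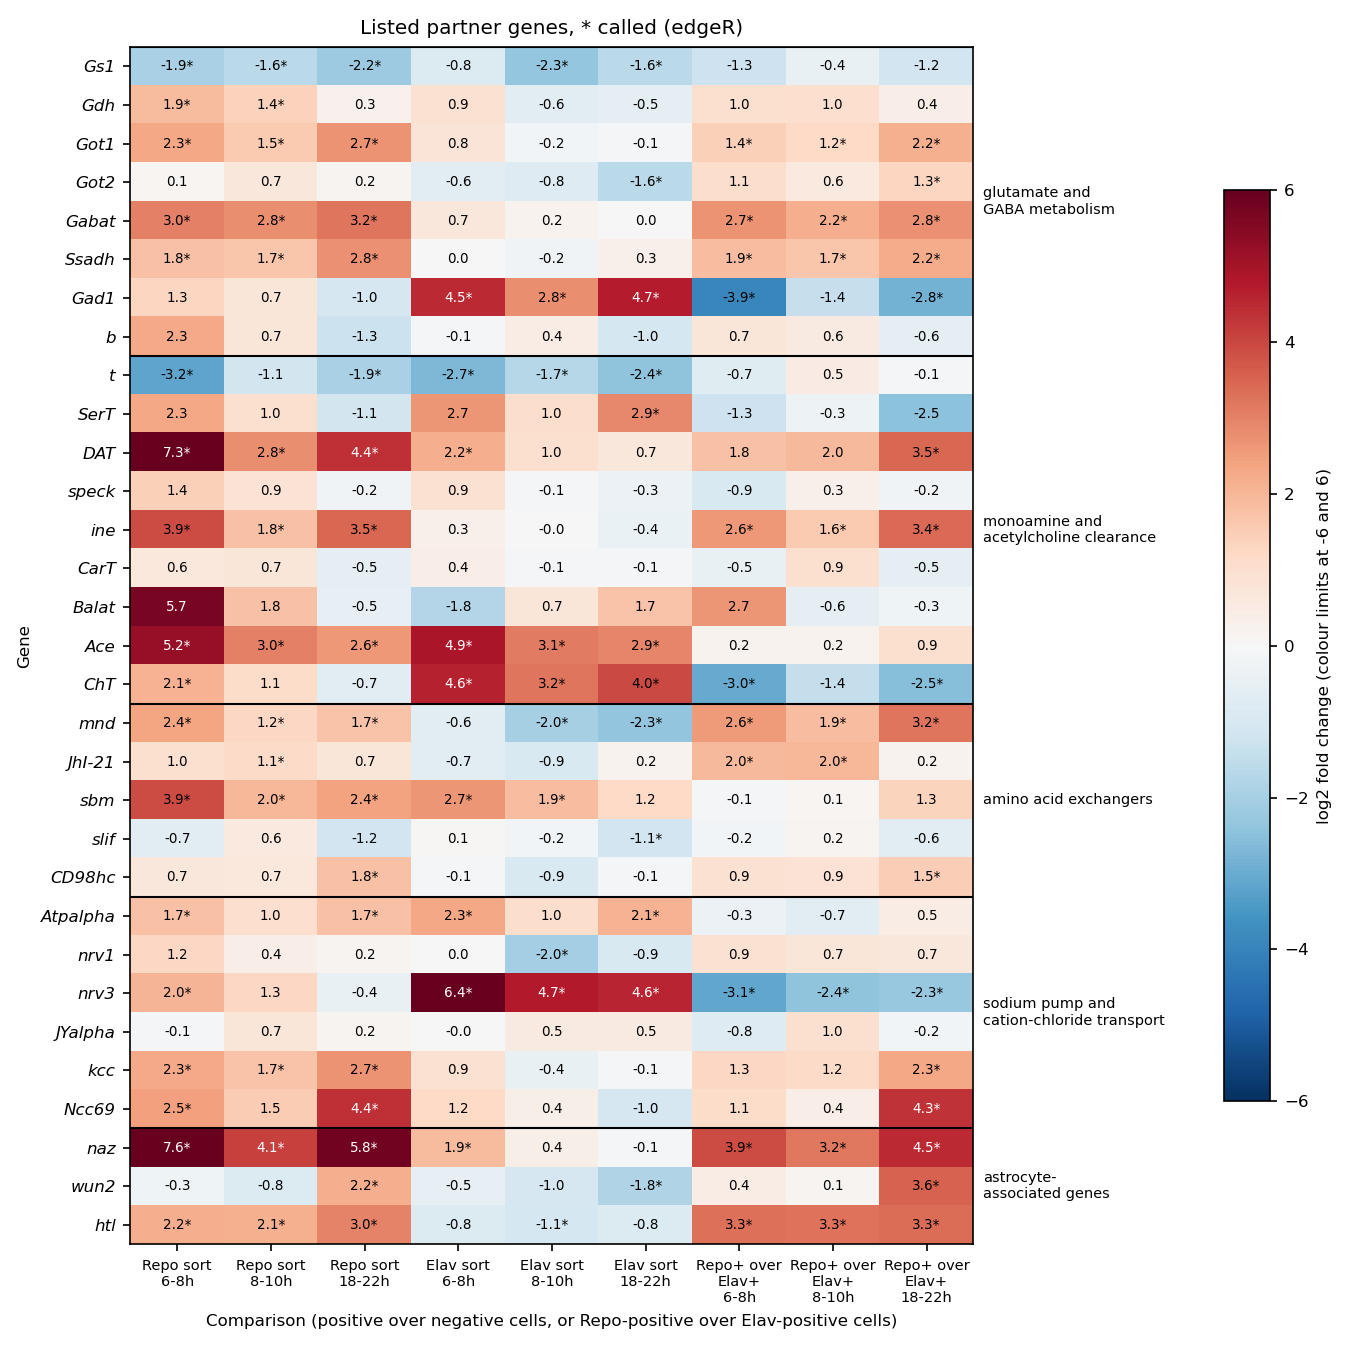
log2 fold changes of the 31 partner genes in 5 lists, printed and coloured, for the Repo sort, the Elav sort and Repo-positive over Elav-positive cells at 3 times; an asterisk marks a call by edgeR. Gabat, Ssadh, Got1, naz and htl are called higher in every Repo column, and Gad1 and nrv3 in every Elav column.

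In the genome (BDGP6) alrm lies on 3R at 25381065-25382781 on the minus strand, as a single exon inside an intron of Fur1 on the same strand, and shares no exonic base with it. Fur1 had 72.9 and 98.0 TPM in Repo-positive cells at 18-22h, against 195 and 234 TPM in Elav-positive cells, the reverse order of alrm. Gb overlaps the antisense RNA gene asRNA:CR45209 on 865 exonic bases. The libraries were quantified by strand, and that gene had 0.56 to 12.3 TPM over the 24 libraries. Gat overlaps an INE-1 transposable element on 289 exonic bases. Eaat1 lies on 2L at 9333567-9341925 (plus strand), Eaat2 on 2L at 737212-744395 (minus) and nrv2 on 2L at 6789770-6798862 (minus). Gs2 lies on X at 11422832-11430197 (plus), Gat on 4 at 629691-635350 (plus), e on 3R at 21229839-21237177 (minus) and gb on 3R at 27108467-27112270 (minus).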

How the data were processed

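RNA was sequenced from fixed, antibody-stained, FACS-sorted embryonic cells in ribodepleted libraries. The authors quantified reads by transcript with Salmon 0.8.1, and the deposited files hold estimated counts and TPM for 34428 transcripts per library. RSEM 1.3.0 is also named in the submitters' processing notes. Here transcripts were matched to 17257 genes of the BDGP6.54 annotation and summed, and 305 could not be matched (0.241% to 0.502% of reads). Gene sums of estimated counts were rounded and fitted with edgeR 4.0.16 (R 4.3.3, limma 3.58.1) on all 48 libraries, with 1 mean per group, TMM factors and filterByExpr, which left 17109 genes. P-values were Benjamini-Hochberg adjusted over all of them. TPM were summed by gene and not tested, and log2(TPM + 1) was used for correlations. The 12 deposited tables of the authors' own DESeq2 comparisons (fold changes and p-values) were not used.

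The 8 genes, the partner lists and the tests were chosen with earlier results of these data known. One gene of these lists is not reported here and was left out of their counts. The text names all 8 genes and the 3 protein-coding genes outside the 8 most like each (mean of at least 10 TPM in 1 group). It also names up to 3 partner genes called higher and 3 lower by fold change in each sort and time. Ssadh, Got1, Atpalpha, htl and the values of named partners outside that rule were chosen after their values were seen. Replicates are biological duplicates per the paper's methods. Alternatives were median-of-ratios factors, no count filter, length-scaled TPM, a replicate block, the chemosensory receptor level as a covariate, fewer libraries, DESeq2 1.42.0 and leaving out each library. Shares by reads in place of TPM were added after seeing the data. The test was checked on simulated data.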

Additional observations from a re-analysis of the deposited data

Results flagged for a closer look

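The change of enrichment of wun2, the lipid phosphate phosphatase gene of the astrocyte-associated list, between 8-10h and 18-22h in the Repo sort was called. It was 2.99 ± 0.56 on the log2 scale (edgeR test of the difference itself, Benjamini-Hochberg adjusted p = 0.01). In that comparison 0.228% of all genes were called higher. Wun2 was picked by this call from the named partner genes over all changes of enrichment tested. Its values in other fits or with libraries left out are not given. At 18-22h wun2 had 290 and 263 TPM in Repo-positive cells, against 58.5 and 81.2 TPM in Repo-negative cells. At 8-10h it had 66.4 and 69.6 TPM in Repo-positive cells, against 85.7 and 105 TPM in Repo-negative cells.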

How the results depend on the processing

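Single-library and fit choices moved several counts of the 8 genes. With the 24 Elav and Repo libraries alone, the count called higher was 1 against 6 in the Elav sort at 6-8h, 0 against 5 at 8-10h and 1 against 2 at 18-22h, 2 against 4 between Repo-positive and Elav-positive cells at 8-10h, and 0 against 5 in Repo-negative cells (18-22h over 8-10h), and 0 against 2 genes were lower in Repo-negative than Elav-negative cells at 18-22h. With the libraries of each contrast alone these were 3, 0, 0 and 0 for the first 4, 0 for the last, 2 against 0 higher in Repo-negative cells (8-10h over 6-8h), 1 against 0 lower in them (18-22h over 8-10h), and 11 against 7 higher and 2 against 0 lower of 48 tests in the Ind, Vnd and Pros sorts. DESeq2 gave 7 against 4 in the Repo sort at 8-10h, 12 of the 48 tests, 2 against 0 for each change of enrichment between 8-10h and 18-22h (higher in Repo, lower in Elav), and in 8-10h over 6-8h 1 against 0 lower in Repo-positive and 2 against 0 higher in Repo-negative cells. Median-of-ratios factors gave 1 for each of those changes of enrichment, the receptor covariate 1 for the Repo one and 1 lower of the 48, and length-scaled TPM 3 against 5 in the Elav sort at 8-10h. The replicate block gave 1 against 2 lower in Repo-negative than Elav-negative cells at 18-22h, 2 against 0 higher in Repo-negative cells (8-10h over 6-8h) and 1 lower of the 48. The replicate block also gained or lost single genes in 6 other comparisons of the Elav, Repo and Pros sorts. The numbers stand for fly lines in the 6-8h Elav sort, where the correlation of deviations was 0.52. Elsewhere they are only numbers (0.35, 0.72, 0.56, -0.55 and 0.03 in the other Elav and Repo sorts). Leaving out each library in turn gave 1 to 6, 0 to 4 and 1 to 3 higher and 0 to 1 lower (18-22h) in the Elav sorts, 4 to 6 between Repo-positive and Elav-positive cells at 18-22h, 0 to 4 lower in Repo-negative than Elav-negative cells at 18-22h, 2 to 5 in Repo-negative cells (18-22h over 8-10h), 0 to 2 lower for the Elav change of enrichment, and 4 to 8 higher and 0 to 1 lower of the 48. Left-out libraries turned the sign of single log2 values: in the Elav sort, Gs2 at 8-10h (-0.21 to 0.90), and at 18-22h alrm (-0.98 to 0.54), Eaat1 (-1.30 to 1.02), Gat (-1.26 to 0.67), Gs2 (-1.73 to 0.73) and e (-0.11 to 0.053). Repo-positive over Elav-positive, they turned Eaat2 (-0.94 to 0.53) and gb (-0.23 to 0.80) at 6-8h, and Eaat2 (-0.58 to 0.18), nrv2 (-0.91 to 0.70) and gb (-1.06 to 0.60) at 8-10h. They also turned gb in Repo-positive cells (-0.0007 to 1.18) and e in Repo-negative cells (-0.19 to 0.12), 18-22h over 8-10h. At 8-10h Eaat2 was 0.057 with median-of-ratios factors, 0.076 with length-scaled TPM and 0.055 with DESeq2, and the receptor covariate gave nrv2 0.16 and gb 0.035. As CPM in place of TPM, the log2 ratio of means of Repo-positive over Repo-negative cells was 5.65 against 6.20, 4.69 against 5.05 and 5.93 against 5.72 for alrm in order of time, 6.84 against 7.44 for Gat and 5.66 against 6.32 for Gs2 at 6-8h, 1.56 against 2.06 and 1.10 against 1.39 for nrv2 at 6-8h and 8-10h, and 1.31 against 2.20, 1.07 against 1.64 and 2.44 against 2.49 for gb. The cause was not tested. Other alternatives kept the side of the threshold in 692 values, 24 became called and 48 lost their call. Depth and the spread of 2 libraries per group limit what the tests can call.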

Other observations

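At 18-22h Elav-negative replicate 2 had 16.2 TPM of Eaat2, against 4.55 TPM in replicate 1, and 7.38 TPM of e, against 2.76 TPM. The same library had 62.1 TPM of Gs2, against 122 TPM in replicate 1, and 169 TPM of nrv2, against 293 TPM. Its median over the chemosensory receptor genes was 14.0 TPM, against 0.13 TPM in replicate 1. The part of that low signal in the Eaat2 and e values was not tested.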
